A study of Mus musculus with 100 samples.

Results

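The starts of cytosolic ribosomal protein genes were examined in 15 tables of raw ChIP-seq tags from mouse macrophage lineage cells. Member regions were the rows assigned to a gene named Rpl or Rps plus a digit, or to Rplp0, Rplp1, Rplp2 or Rpsa, with the region centre at most 2000 bp from the annotated transcription start. Rps6k kinases and pseudogene names were left out. The rule gave 761 regions of 610301 rows over the 15 tables, at 81 genes: 44 of the large subunit, 31 of the small subunit and 6 paralogs or look-alikes. The rule used names and distances and no measured value. RefSeq holds 89 protein-coding genes with such names, and 8 of these had no region in any table (Rpl4, Rpl7a, Rpl3l, Rpl10l, Rpl32l, Rpl37rt, Rps23rg1 and Rps27rt).

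Ribosomal proteins are the structural proteins of the large and small ribosomal subunits, are needed in near equal numbers, and are encoded by single genes spread over the genome among many processed pseudogenes. Their promoters are short, active in every cell type, commonly start in a pyrimidine tract, and often hold binding sites of ETS factors such as GABP, of SP1, NF-Y and YY1, or a palindromic CGCG box. In macrophages the genes are among the most highly transcribed housekeeping genes, and several coregulators that act at inflammatory enhancers also give ChIP-seq signal at such open promoters.

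The series compared bone marrow-derived macrophages (BMDMs) of adult C57BL/6 mice that were serum-starved and then given vehicle (Veh) or Kdo2 lipid A (KLA). KLA activates the lipopolysaccharide receptor TLR4 and was given for 6 h by the study's methods. The labels give 6 h for some Veh groups, 0 h for the p300 Veh group and no time for several other groups. Factor chromatin came from wild-type (WT) BMDMs and was precipitated for the corepressor NCoR, the histone deacetylase HDAC3, p65 of NFκB, Fosl2 of the AP-1 family, the myeloid lineage factor PU.1, the coactivator PGC1β, the kinase ERK1 and the acetyltransferase p300. ERK1 and p300 were also profiled in osteoclast precursor cultures before (Day0) and after 4 days (Day4) of RANKL. PGC1β was profiled again in cells given DMSO with Veh or KLA or the ERK inhibitor (ERKi) with KLA, and NCoR in cells given ERKi with KLA. H3K27ac, an acetylation of histone H3 found at active promoters and enhancers, was profiled in NCoR flox/flox cells, called WT in that table, and in NCoR flox/flox cells with LysM-Cre (NKO), each with Veh or KLA. The same mark was profiled in WT cells given DMSO with Veh or KLA or the HDAC3 inhibitor RGFP966 with KLA, and in Pgc1b flox/flox cells without (flox) or with LysM-Cre (flox Cre), each with Veh or KLA. LysM-Cre recombines floxed alleles in the myeloid lineage, and no table here measured the NCoR or PGC1β protein in the deleted cells, so the deletion was not checked here. The study itself examined PGC1β protein by immunoblot in BMDMs of both Pgc1b genotypes and refers to earlier work for the NCoR mice. Each group held 2 libraries, and 70 of the 100 samples had count columns. The 30 input samples were not analysed here.

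Library totals ran from 4.30 to 21.5 M tags, and 2.79 to 52.8% of the tags of a library lay in the regions of its table. The HDAC3 KLA library of replicate 2 stood apart, with 5.69 M tags and 46.5% of them in regions, and the Fosl2 KLA libraries differed from each other (16.4 and 32.3%). Between 4 and 7 of 7 macrophage marker genes had a region in every table. Of 6 osteoclast markers 0 to 4 had a region (Acp5, Ctsk, Mmp9 and Ocstamp in the p300 table of Day0 and Day4), and of 6 markers of other cells none had one, apart from Siglech in the p300 table of the KLA experiment. The study's methods call the ChIP replicates biological, but the labels do not tie the 2 libraries of a group to animals or cultures, so the p-values measure the spread between these libraries. The signal comes from bulk chromatin, in which a change in all cells and a change in some cells cannot be told apart.

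The sequences shown are those the results turn on, namely an element inside Rpl24 and the 125 bases around the start (100 before it and 25 from it) of 6 genes whose occupancy or acetylation differed between groups. All are from GRCm38.p6 and are written 5′ to 3′ on the strand of the gene, the promoters from RefSeq's annotated starts. Capitals mark matches to AP-1 (TGANTCA), ETS (CCGGAAG), SP1 (GGGCGG), NF-Y (CCAAT) or the palindromic CGCG box, on either strand. The Rpl24 element (chr16:55966945-55967151, + strand) is the p65 peak there, and its capitals mark an AP-1 match.
Rpl24 element: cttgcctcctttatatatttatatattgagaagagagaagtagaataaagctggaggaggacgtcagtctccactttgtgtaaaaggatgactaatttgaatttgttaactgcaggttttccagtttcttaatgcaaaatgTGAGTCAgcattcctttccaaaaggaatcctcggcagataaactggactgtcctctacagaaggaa
The Rpl24 promoter (chr16:55966175-55966299, + strand) has an NF-Y match.
Rpl24 promoter: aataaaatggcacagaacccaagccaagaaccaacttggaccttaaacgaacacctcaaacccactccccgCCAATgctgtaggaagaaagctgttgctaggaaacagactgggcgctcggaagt
The promoters of Rps6 (chr4:86857343-86857467, − strand) and Rps19 (chr7:24884492-24884616, + strand) both carry the CGCG box, with an ETS match in Rps6 and an SP1 match in Rps19.
Rps6 promoter: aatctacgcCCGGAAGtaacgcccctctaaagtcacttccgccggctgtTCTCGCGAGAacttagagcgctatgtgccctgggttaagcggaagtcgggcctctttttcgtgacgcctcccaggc
Rps19 promoter: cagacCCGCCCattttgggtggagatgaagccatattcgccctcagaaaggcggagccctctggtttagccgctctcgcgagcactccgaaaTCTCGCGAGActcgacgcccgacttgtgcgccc
Rpl14 (chr9:120571417-120571541, + strand) has an NF-Y match and a pair of SP1 matches.
Rpl14 promoter: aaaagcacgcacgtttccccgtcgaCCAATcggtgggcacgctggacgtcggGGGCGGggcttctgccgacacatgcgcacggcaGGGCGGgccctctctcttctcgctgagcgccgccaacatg
Rps27l (chr9:66945986-66946110, + strand), a paralog of Rps27 known as a p53 target, and Rpl19 (chr11:98026610-98026734, + strand) both have an ETS match, with NF-Y and SP1 matches in Rps27l as well.
Rps27l promoter: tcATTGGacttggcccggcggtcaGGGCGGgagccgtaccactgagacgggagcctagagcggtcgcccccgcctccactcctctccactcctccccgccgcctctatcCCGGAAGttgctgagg
Rpl19 promoter: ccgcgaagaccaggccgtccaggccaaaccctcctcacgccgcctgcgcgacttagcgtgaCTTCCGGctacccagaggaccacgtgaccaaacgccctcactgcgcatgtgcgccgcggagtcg

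Ribosomal protein gene starts held a region more often than protein-coding genes in general in each of the 15 tables. The share of the 89 genes with a region within 2 kb ran from 24.7% (Fosl2) to 64.0% (PU.1), and the share of all protein-coding genes from 12.4% (ERK1, Day0 and Day4) to 38.8% (H3K27ac, WT and NKO). In the PU.1 table the shares were 64.0 and 29.6%, for HDAC3 they were 60.7 and 27.6%, and for p65 they were 57.3 and 29.6%. These shares are descriptions of the tables, which differ in the number of regions. Rpl27, Rpl31 and Rpl41 had a region in 14 tables, 40 genes in 10 or more, and 11 genes in only 1 to 3, and the median over the 81 genes was 9 tables. No gene had a region in all 15. The regions sat close to the start: for p65, 37 of 56 (66.1%) were centred within 100 bp of it, against 38.9% of all promoter-proximal regions (those within 2000 bp of any start). Over all tables this share was 55.4 to 81.8% for the ribosomal protein regions and 29.9 to 51.4% for promoter-proximal regions. The gap was small for the H3K27ac windows of 1000 bp, with shares of 55.4 and 50.2%.

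**Figure D1:**
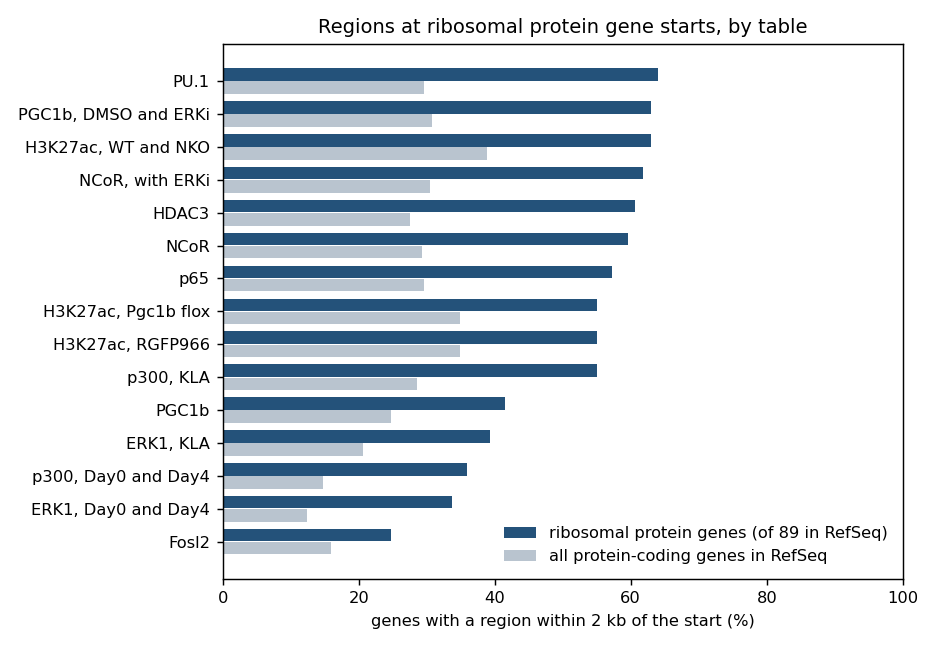
Share of genes (%) with at least 1 region within 2 kb of the annotated start in each of the 15 tables, for the 89 ribosomal protein genes (dark bars) and for all protein-coding genes in RefSeq (light bars). The dark bar is the longer in every table, from 24.7% in the Fosl2 table to 64.0% in the PU.1 table.

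Signal per length in the factor tables was close to that of all promoter-proximal regions. The median over ribosomal protein regions, in tags per kb per 10 M tags, was 383 in the PU.1 table against 311 over all promoter-proximal regions. It was 183 against 157 for p65, 182 against 170 for NCoR, 197 against 211 for HDAC3 and 163 against 189 for Fosl2. The H3K27ac medians lay farther apart in the Pgc1b experiment, at 168 against 114. They were 90.9 against 77.1 in the RGFP966 experiment and 58.4 against 62.6 in the WT and NKO experiment. The region with most tags per kb was that of Rpl3, a core protein near the peptidyl transferase centre, in the Fosl2 table and in all PGC1β, ERK1 and p300 tables (210 to 576 tags per kb per 10 M). Rpl10a led the NCoR and HDAC3 tables (560 and 558), Rpl27 the p65 table (443), and a region at −1553 bp from the start of Rps15a the PU.1 table (1216). Factor regions are peaks called from the same libraries, so these levels are a description and have no test.

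Among the motifs counted, the ETS and CGCG motifs were more frequent at the ribosomal protein p65 regions than over all promoter-proximal regions. The latter include the former and were not matched for distance to the start. In the central 200 bp of the p65 regions, CCGGAAG on either strand was present in 21 of 56 (37.5%) ribosomal protein regions and in 12.2% of 10395 promoter-proximal regions. All 21 were among the 46 regions within 500 bp of the start. The CGCG box was present in 8.93 and 0.529%, GGGCGG in 41.1 and 40.9%, CCAAT in 14.3 and 21.7%, and TGANTCA in 7.14 and 10.1%. TATAAA was present in 10.7 and 5.35%, TGACGTCA in 3.57 and 1.99%, and the NFκB motif in 1.79 and 1.32%. At the PU.1 regions CCGGAAG was present in 34.8 and 9.86%, whereas GAGGAAGT, the longer PU.1 site, was present in 5.80 and 13.5%. Also at the PU.1 regions, AAGATGGCG, a YY1 motif, was present in 5.80 and 1.08% and TGACGTCA, the cyclic AMP response element, in 5.80 and 1.46%, whereas AAGATGGCG was present in 1.79 and 1.86% at the p65 regions. TATAAA was present in 12.9% of ribosomal protein regions of the H3K27ac table of WT and NKO cells and in 2.10% of its promoter-proximal regions. CCGGAAG matches on opposite strands can overlap, and a match is a description of the letters, not a bound site.

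The first question was how TLR4 activation changed factor occupancy at these starts. A region was called when the adjusted p of edgeR's quasi-likelihood test was under 0.05 and the change over 2-fold, and fold changes are log2 of tags scaled by the library total. Factor regions are peaks joined across conditions and tested on the same libraries. A region near background with Veh may thus be listed only for its KLA peak, or the reverse. Calls at such regions are not independent of how the regions were chosen. For p65, 9 of 56 member regions rose and 8 fell, against 57.0% of all 52629 regions that rose and 5.43% that fell. The median change was −0.28 at ribosomal protein regions, 0.15 at all promoter-proximal regions and 1.46 at all regions. The 4 libraries had member medians of 171 and 195 tags per kb per 10 M with Veh and 154 and 182 with KLA, which overlap. TMM scaling, which sets the typical region near no change, lowered the median of all p65 regions by 1.22 and gave 3 regions that rose and 37 that fell. The gap between ribosomal protein and promoter-proximal medians was −0.44 with both scalings, and within 500 bp of the start, where most ribosomal protein regions lie, it was −0.21 with library totals and −0.22 with TMM. Without KLA replicate 1 the calls were 3 higher and 0 lower, without KLA replicate 2 they were 1 and 3, and without Veh replicate 1 they were 9 and 13.

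Most p65 regions that fell lay within 500 bp of the start and most of those that rose lay farther out. Within 500 bp, 2 of 46 regions rose and 7 fell, and farther out 7 of 10 rose and 1 fell. The latter, at −678 bp from Rps27a and named after its value was seen, had 21.9 and 13.98 tags per 10 M with Veh and 0 and 3.42 with KLA (log2 change −3.34, SE 0.84, adjusted p = 0.0050), a call lost without KLA replicate 1 and with a replicate block. Of all promoter-proximal regions, 16.9% were higher and 15.2% lower within 500 bp, and 48.6 and 8.3% beyond. The share of ribosomal protein regions that fell within 500 bp was thus close to that of all promoter-proximal regions. Gains were more frequent beyond 500 bp in that larger set as well. The difference between the distances was not tested, and regions with few Veh tags may be listed only for their KLA peaks. The p65 region with the lowest p among those that fell was at Rpl37, a zinc-binding protein of the large subunit, 6 bp from the start. It had 56.03 and 55.0002 tags per 10 M with Veh and 12.7 and 22.6 with KLA (log2 change −1.65, SE 0.42, adjusted p = 0.0049), and the groups did not overlap. Rps27l fell from 105 and 87.6 to 44.7 and 48.6 (−1.05, SE 0.28, adjusted p = 0.0075). Rpl5, which with Rpl11 and 5S rRNA binds the p53 regulator Mdm2, had 0 and 4.66 tags with Veh and 26.05 and 28.7 with KLA at an intergenic region at −1794 bp (3.54, SE 0.82, adjusted p = 0.0031). Without either KLA library that region was no longer called, with changes of 3.59 and 3.45. At Rplp0, the P0 stalk protein, a region in an intron 469 bp into the gene rose from 33.3 and 27.03 to 82.8 and 71.8 (1.35, SE 0.33, adjusted p = 0.0040), a change of 0.13 with TMM, and the call was also lost without either KLA library. Rpl39l, a paralog of Rpl39 known for its expression in testis, had 0 and 8.39 tags with Veh and 38.1 and 43.8 with KLA in an intron 1136 bp from the start (3.29, SE 0.79, adjusted p = 0.0037). Its change was 2.10 with TMM, and the call was lost in DESeq2 and without either KLA library.

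**Figure D2:**
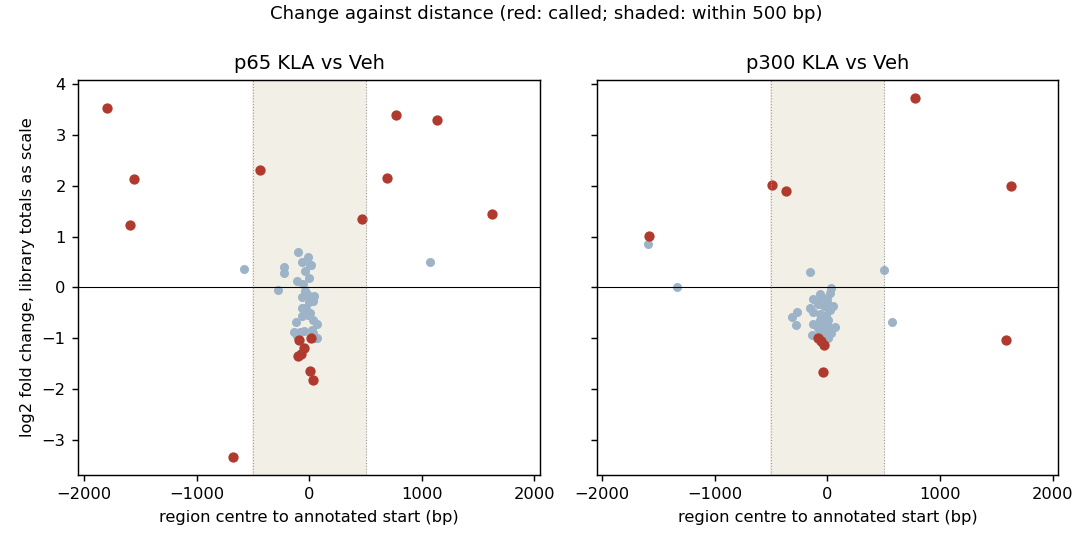
Log2 fold change with KLA (vertical axis, library totals as scale) against the distance of the region centre from the annotated start in bp (horizontal axis) for the 56 p65 and the 54 p300 ribosomal protein regions; red points are called, and the shaded band is within 500 bp. Called regions inside the band are mostly below 0 and most called regions outside it are above 0.

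For p300, 5 of 54 regions rose and 5 fell with KLA, against 42.1% of all regions that rose and 12.9% that fell. The median change was −0.61 at ribosomal protein regions, −0.26 at promoter-proximal and 0.65 at all regions. Of the 54 fitted changes 45 were negative. The share of negative changes was not counted over promoter-proximal regions, whose median was negative too. With TMM 4 rose and 33 fell, and without KLA replicate 2 the calls were 3 and 1. The gap to the promoter-proximal median was −0.35 and, within 500 bp of the start, −0.17. Member medians were 198 and 198 tags per kb per 10 M with Veh and 141 and 125 with KLA, and the groups did not overlap. The labels give 0 h for these Veh libraries and 6 h for the KLA libraries, so time and KLA cannot be told apart by the labels. Rpl36a, a small protein at the exit site of the large subunit, had the lowest p of those that fell, from 47.0 and 40.1 to 12.3 and 15.1 tags (−1.67, SE 0.37, adjusted p = 0.00096). Rps27l fell from 52.0 and 50.6 to 24.6 and 26.5 (−1.01, SE 0.30, adjusted p = 0.0083). Rpl13a, whose protein also serves in a translational silencing complex, had −0.74 (SE 0.30, adjusted p = 0.039) and Rpl11 −0.80 (SE 0.29, adjusted p = 0.025), both past the p threshold without a 2-fold change.

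NCoR and HDAC3 changed at few ribosomal protein starts. For NCoR 6 of 57 regions rose and 1 fell, against 23.4 and 16.7% of all regions, with a member median of −0.07 (promoter-proximal −0.09). Without NCoR KLA replicate 1 no region was called, and without KLA replicate 2 only 1. The NCoR region with the lowest p lay at −485 bp from the start of Rpl13 and had 0 tags in both Veh libraries and 17.0 and 14.5 tags per 10 M with KLA. Against a floor of 3 counts over the Veh group this was at least 8.81-fold higher. The region that fell was at Rps27l, from 59.7 and 69.4 to 21.9 and 41.5 (−1.01, SE 0.38, adjusted p = 0.048), and this call was lost in DESeq2 and without any 1 of 3 libraries (KLA replicates 1 and 2 and Veh replicate 2). Rpl36al, a paralog of Rpl36a, rose from 8.36 and 4.71 to 22.7 and 32.5 (2.07, SE 0.57, adjusted p = 0.013) at 345 bp from its start. This call too was lost without either KLA library. Rpl10a, with most NCoR tags per kb, had a change of −0.69 (SE 0.21, adjusted p = 0.020).

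For HDAC3, the deacetylase partner of NCoR, 3 of 58 regions rose and 1 fell, against 27.5 and 11.3% of all regions. Rpl36 had 42.2 and 54.7 tags with Veh and 19.3 and 17.6 with KLA (−1.38, SE 0.48, adjusted p = 0.013), a call lost without either Veh library. Rpsa, the laminin receptor protein of the small subunit, rose from 13.1 and 13.8 to 45.1 and 80.8 at a region −471 bp from the start (2.17, SE 0.48, adjusted p = 4.8e-05). This region was not the strongest of Rpsa and is named after its value was seen. TMM gave 3 higher and 4 lower, and without the library that stands apart, KLA replicate 2, the calls were 3 and 5. Without Veh replicate 1 or 2 only 1 region was called.

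PU.1, Fosl2, PGC1β and ERK1 gave 6 calls in all. No PU.1 region of 69 rose and 1 fell, against 21.7% of all PU.1 regions that fell. It lies at −560 bp from the start of Rps21 and went from 36.7 and 36.7 to 13.7 and 22.3 tags (−1.02, SE 0.24, adjusted p = 9.3e-05), with a change of −0.61 under TMM, and the call was lost without KLA replicate 1 (−0.72). The PU.1 median was −0.18 with library totals and 0.23 with TMM, against −0.36 and 0.06 at promoter-proximal regions. For Fosl2 1 of 22 regions rose (11.4% of all regions), for PGC1β 3 of 40 (16.4%) and for ERK1 1 of 41 (10.3%), and none fell. In Fosl2, 20 of 22 fitted changes were negative (median −0.83, promoter-proximal −0.58). The share of negative changes over promoter-proximal regions was not counted here either. Without Fosl2 KLA replicate 2 the calls were 1 higher and 8 lower, and without either Veh library there were none. For PGC1β 6 rose and 1 fell without KLA replicate 2, and 1 rose without Veh replicate 2. For ERK1 3 rose without Veh replicate 1, and without KLA replicate 1 none rose and 1 fell. The few calls for Fosl2 and ERK1, with 2 libraries per group, do not show that the other regions did not differ.

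One element rose with KLA for 7 of the 8 factors, and the eighth, PU.1, had no region there. It lies inside Rpl24, which encodes a protein of the intersubunit bridge, 773 bp from the start, and spans the end of intron 2 and the beginning of coding exon 3 (55967060 to 55967170). In the p65 libraries it had 5.25 and 23.3 tags per 10 M with Veh and 130 and 170 with KLA (log2 change 3.40, SE 0.46, adjusted p = 9.6e-05). The p300 values were 6.27 and 3.29 with Veh and 58.3 and 71.3 with KLA (3.73, SE 0.41, adjusted p = 1.2e-06). For both factors the KLA libraries lay above the Veh libraries.
HDAC3 went from 6.55 and 8.29 to 46.9 and 68.5 (2.90, SE 0.54, adjusted p = 8.6e-07) and NCoR from 3.58 and 12.9 to 41.3 and 37.4 (2.23, SE 0.57, adjusted p = 0.0088). NCoR and HDAC3 are known as corepressor partners. PGC1β rose from 5.29 and 4.18 to 42.6 and 26.9 (2.84, SE 0.53, adjusted p = 0.00074), ERK1 from 9.44 and 6.94 to 56.6 and 34.03 (2.47, SE 0.64, adjusted p = 0.029) and Fosl2 from 28.2 and 9.44 to 90.8 and 130 (2.57, SE 0.87, adjusted p = 0.026). The NCoR call was lost without either KLA library (2.16 and 2.30, adjusted p = 0.13 and 0.10 in edgeR). The Fosl2 call was lost without either Veh library and with a replicate block (2.69, adjusted p = 0.27), and the ERK1 call without KLA replicate 1 or Veh replicate 2, at changes of 1.96 to 3.53. For p65, p300, HDAC3 and PGC1β the element stayed called without any 1 library. In the second PGC1β experiment the element had 8.12 and 7.29 tags with DMSO Veh, 15.8 and 23.8 with DMSO KLA and 25.03 and 32.3 with ERKi KLA, and was not called. With TMM it stayed called in all 7 comparisons.

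The element was singled out after its values were seen, and it is 1 of 122 sites formed by joining overlapping member regions over the 12 factor tables. With few Veh tags, it may be listed only for its KLA peaks, and the calls use the same libraries. Of these 122, the Rpl24 element alone was higher in 5 or more of the 8 KLA comparisons, 4 sites were higher in 2 to 4, 11 in 1, and 93 were called in neither direction. Sites at other genes were not joined, so no share over all sites stands beside these counts. Of all regions in single comparisons, 57.0% were higher for p65, 42.1% for p300, 27.5% for HDAC3 and 23.4% for NCoR. Whether joint gains are frequent at other genes was not tested. Sites at −1547 bp from Rps15a and −485 bp from Rpl13 rose for NCoR, p65 and p300. The Rps15a site is intergenic, toward the end of Arl6ip1, and had 28.9 and 10.3 p65 tags with Veh and 60.8 and 112 with KLA (2.13, SE 0.48, adjusted p = 0.0025). On the other side, Rps27l fell for NCoR, p65 and p300, Rpl19 for p65 and p300, and 11 sites for 1 factor. The p65 calls at Rps27l and Rpl19 were lost without p65 KLA replicate 1, and the NCoR call at Rps27l was lost in several fits, as given above. No site was called higher for 1 factor and lower for another. These are calls in separate experiments, and the antibodies were not compared with each other.

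The second question was what the inhibitors and RANKL did. NCoR signal with ERKi and KLA against KLA alone was lower at 10 of 62 member regions and higher at none, against 48.6% lower over all regions. The median was −0.65 with library totals and turned to 0.52 with TMM (2 higher, 0 lower), against −1.005 and 0.16 at promoter-proximal regions. Of the tags, 34.2 and 33.3% lay in regions in the KLA libraries and 15.8 and 14.97% in the ERKi libraries, and the part of this gap in the result was not tested. The ERKi libraries also carry another date in their names than the KLA libraries, and date and inhibitor cannot be told apart. Unlike in the PGC1β experiment with ERKi, the KLA libraries here carry no DMSO label, so the labels show no solvent control. Rps15a, at its upstream site, had 123 and 89.9 tags with KLA and 36.3 and 33.6 with ERKi (−1.60, SE 0.33, adjusted p = 0.0017), and −0.43 with TMM. Without KLA replicate 1 no region was called, without KLA replicate 2 there were 2 and without ERKi replicate 2 there were 6.

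PGC1β with DMSO gave 1 of 65 regions higher with KLA, against 16.4% of all regions. It lies in an intron of Rps15a 1431 bp from the start and went from 5.68 and 8.74 to 41.4 and 37.2 tags (2.45, SE 0.85, adjusted p = 0.044), a call lost with TMM and without any 1 of the 4 DMSO libraries. Of the same 65 regions, 0 were called between ERKi KLA and DMSO KLA (0.286% of all regions), with 6 at an unadjusted p under 0.05 in edgeR and 0 calls in DESeq2.

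In the osteoclast precursor cultures p300 was higher at 6 of 33 member regions on Day4 and lower at none, against 62.2% higher over all regions. The median was 0.45 with library totals, below the 1.001 of promoter-proximal and the 1.84 of all regions, and −1.16 with TMM, where 0 rose and 6 fell. The region with the lowest p lies at −1571 bp from Rps27a, in an intron of the neighbouring gene Clhc1, and had 10.5 and 4.26 tags on Day0 and 53.8 and 51.0 on Day4 (2.64, SE 0.61, adjusted p = 0.0032). With TMM it had 1.02 and was not called. Without either Day4 library no region was called, and without Day0 replicate 2 there were 10. At 4 of 6 osteoclast markers the p300 tags summed to 132 and 135 per 10 M on Day0 and 649.97 and 723 on Day4, and at 6 of 7 macrophage markers to 341 and 413, and 464 and 506. Their part in the result was not tested. ERK1 had 0 of 30 regions called (2.35% of all), 5 at an unadjusted p under 0.05, 0 in DESeq2, and a median of 0.81 that became −0.17 with TMM. Its sums at 3 osteoclast markers were 66.3 and 80.9 on Day0 and 99.1 and 177 on Day4. The ERK1 Day4 library titled replicate 2 is described in its label as another replicate with another date, and the part of this in the result was not tested.

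The third question concerned H3K27ac. RGFP966 with KLA against DMSO with KLA gave the largest number of calls of the 25 comparisons at library totals: 23 of 56 windows (41.1%), all lower, against 9.53% of all windows and 23.2% of promoter-proximal windows. The 56 windows of 1000 bp cover 49 genes, and 6 neighbouring pairs overlap and share tags. The median change was −0.86 at ribosomal protein windows, −0.57 at promoter-proximal windows and 0.39 at all windows, and with TMM 37 fell and none rose (median −1.20). Library medians over the windows were 98.0 and 106 tags per 10 M with DMSO Veh, 124 and 96.8 with DMSO KLA and 66.5 and 57.6 with RGFP966 KLA. Both RGFP966 libraries were below both DMSO KLA libraries at 47 of 56 windows (60.5% of promoter-proximal windows) and below both DMSO Veh libraries at 44 (74.0%). Without DMSO KLA replicate 1 the calls were 2 higher and 13 lower.

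**Figure D3:**
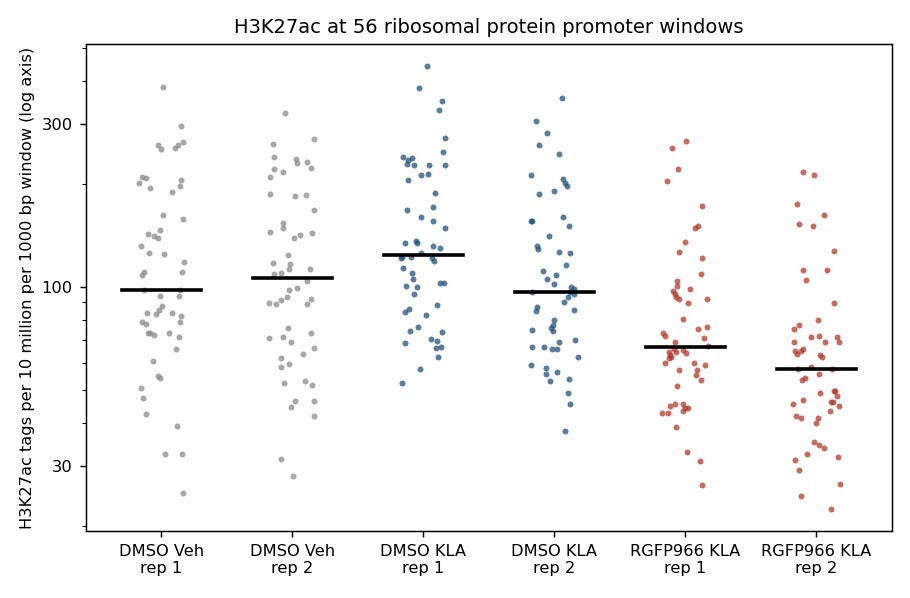
H3K27ac tags per 10 M in each of the 56 ribosomal protein windows of 1000 bp (points, log axis) in the 6 libraries of the RGFP966 experiment; black bars are medians. The medians of the 2 RGFP966 KLA libraries, 66.5 and 57.6, are below those of the 4 DMSO libraries, which run from 96.8 to 124.

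Rpl30, a small protein of the subunit interface, had the lowest p, with 260.0 and 216 tags with DMSO Veh, 229 and 187 with DMSO KLA and 65.8 and 49.5 with RGFP966 KLA (−1.85, SE 0.23, adjusted p = 5.3e-14). Rps19, the gene most often mutated in Diamond-Blackfan anaemia, had 253 and 231, 273 and 245, and 101 and 71.1 (−1.59, SE 0.22, adjusted p = 6.8e-12). In these genes the RGFP966 libraries were below every DMSO library, and the DMSO Veh and DMSO KLA libraries overlapped. Rps6, the target of S6 kinase, had 78.9 and 117, 172 and 109, and 64.5 and 65.03 (−1.12, SE 0.23, adjusted p = 8.0e-06), a call lost without DMSO KLA replicate 1. Rplp0 (−1.20, SE 0.25, adjusted p = 7.0e-06) and Rpl13a (−1.21, SE 0.25, adjusted p = 9.4e-06) were called too, and both calls were lost without that library, Rpl13a also without RGFP966 replicate 2 (−0.69). Rpl22l1, the paralog of Rpl22, in its window at −120 bp had 47.3 and 46.2, 100 and 79.9, and 26.3 and 26.4 (−1.78, SE 0.27, adjusted p = 1.3e-09).
Of the panel followed throughout, Rpsa (−0.69, adjusted p = 0.0029), Rpl5 (−0.83, adjusted p = 0.0063) and Rpl11 (−0.56, adjusted p = 0.049) were lower by less than 2-fold, and Rps3 had −0.47 (adjusted p = 0.086). Past the p threshold alone 40 of 56 windows were lower and 2 higher, against 22.3% lower and 40.2% higher over all windows. Both that were higher lie far upstream of the start, at −1580 bp of Rps27a, encoding a ubiquitin fusion protein (136 and 90.0 to 254 and 175, 0.91, SE 0.21, adjusted p = 7.1e-05), and at −1575 bp of Rps15a (160 and 116 to 268 and 217, 0.80, SE 0.21, adjusted p = 0.00042). Of large subunit windows 11 of 28 were lower, and of small subunit windows 10 of 24. Other housekeeping lists had 20 of 30 windows lower at proteasome genes, 14 of 21 at genes of rRNA synthesis and ribosome assembly, 12 of 46 at mitochondrial ribosomal protein genes and 8 of 20 at translation and TOP mRNA genes. Lower windows were thus found in each of these lists.

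KLA alone gave few H3K27ac calls at library totals. The ribosomal protein median nevertheless lay above the promoter-proximal median. The gap was 0.27 with library totals and 0.26 with TMM in WT cells, and 0.27 with both scalings in the DMSO experiment. In WT cells of the NCoR experiment 2 of 56 tested windows (of 62) rose and none fell, against 6.49% of all windows that rose. Rpl14 rose from 86.4 and 64.2 to 174 and 176 tags (1.22, SE 0.17, adjusted p = 7.0e-07) and Rps6 from 27.1 and 15.8 to 44.0 and 59.3 (1.28, SE 0.33, adjusted p = 0.0052), the latter call lost without KLA replicate 2 or Veh replicate 2. Without Veh replicate 2, 4 windows rose, and without KLA replicate 2, 1. With DMSO 2 of 56 rose, against 6.73%, and 9 with TMM, 5 without KLA replicate 2 and 4 without Veh replicate 1. Without KLA replicate 1, 1 rose and 2 fell. Rpl24 rose from 50.7 and 51.5 to 206 and 125 (1.71, SE 0.25, adjusted p = 3.3e-11) in the window around its start, and had 73.1 and 63.0 with RGFP966 and KLA (−1.29 against DMSO KLA, SE 0.23, adjusted p = 1.9e-07). Rpl22l1 rose at +259 bp, in a window that overlaps the one given above, from 53.99 and 46.2 to 113 and 96.8 (1.07, SE 0.25, adjusted p = 9.5e-05). In the WT and NKO table the Rpl24 region at the start had only 4.6 to 7.6 tags with Veh and 3.8 to 13.1 with KLA, over a shorter interval, and was not called.

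Rps27l again lay on the lower side. Its H3K27ac window had 209 and 223 tags with DMSO Veh and 122 and 102 with DMSO KLA (−0.94, SE 0.22, adjusted p = 6.9e-05), and 375 and 394 with Veh and 240 and 222 with KLA in the Pgc1b flox cells (−0.73, SE 0.09, adjusted p = 1.3e-13). Both changes stayed negative with TMM (−0.52 and −0.30). In flox Cre cells it had −0.32 (SE 0.10, adjusted p = 0.0025) with library totals and 0.30 with TMM, so the direction depends on the scaling there. Over the 56 windows the KLA changes of the DMSO and the Pgc1b flox experiments, which share no library, had a Pearson r of 0.75 and a Spearman rho of 0.67. This is across windows, which are not independent replicates, and both experiments were counted over the same windows.

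Deletion of NCoR gave 0 calls at the 56 tested windows. NKO against WT had 0 with Veh (1.00% of all windows) and 0 with KLA (0.789%), and the difference in KLA response 0 (0.697%). At an unadjusted p under 0.05 these comparisons had 11, 3 and 10 windows, and DESeq2 made 0 calls in each. The KLA response within NKO cells gave 0 calls as well (10.7% of all windows in either direction), 8 windows at an unadjusted p under 0.05 and 0 in DESeq2. The median difference with Veh was 0.48 with library totals and 0.18 with TMM.

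In the Pgc1b experiment KLA lowered 1 of 56 windows in flox cells (25.6% of all windows) and raised none. In flox Cre cells it raised 1 (4.18%) and lowered 2 (32.5%). Both cell types had the window at −1580 bp from Rps27a, in Clhc1, among those lowered: 272 and 217 to 102 and 104 tags in flox cells (−1.26, SE 0.13, adjusted p = 1.3e-19) and 218 and 265 to 66.5 and 93.1 in flox Cre cells (−1.59, SE 0.14, adjusted p = 4.9e-27). With TMM both lost the 2-fold change (−0.83 and −0.97) and kept an adjusted p under the threshold. Rpl24 rose in flox Cre cells, from 99.8 and 90.2 to 226 and 219 (1.23, SE 0.14, adjusted p = 9.4e-18), and had 130 and 125 with Veh and 235 and 228 with KLA in flox cells. The median KLA change was −0.08 in flox and −0.16 in flox Cre cells and turned positive with TMM (0.34 and 0.46), above the promoter-proximal medians with either scaling.

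Flox Cre against flox cells had 0 of 56 windows called with Veh (0.397% of all) and 0 with KLA (7.52%), with 24 and 27 at an unadjusted p under 0.05 and 0 calls in DESeq2. Past the p threshold without a 2-fold change, 10 were lower and 1 higher with Veh, against 14.8 and 0.349% of all windows past that threshold. With KLA 21 were lower and 0 higher, against 41.5% of all windows lower. The flox Cre KLA libraries stood apart, with 22.38 and 21.97% of their tags in regions, against 29.9 and 30.1% for flox KLA. Their summed tags at the 7 macrophage markers were 1373 and 1427 per 10 M, against 2694 and 2797 in flox KLA and 2311 to 2700 in the Veh libraries. The part of this gap in the results with KLA was not tested. The medians, −0.21 and −0.27, were 0.00 and 0.13 with TMM. The difference in KLA response between the genotypes gave 0 calls (5.37% of all windows), 7 at an unadjusted p under 0.05 and 0 in DESeq2. Past the adjusted p alone there were 6 of 56 windows (5 lower, 1 higher), against 18.5% of all windows (16.4% lower, 2.10% higher).

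**Figure D4:**
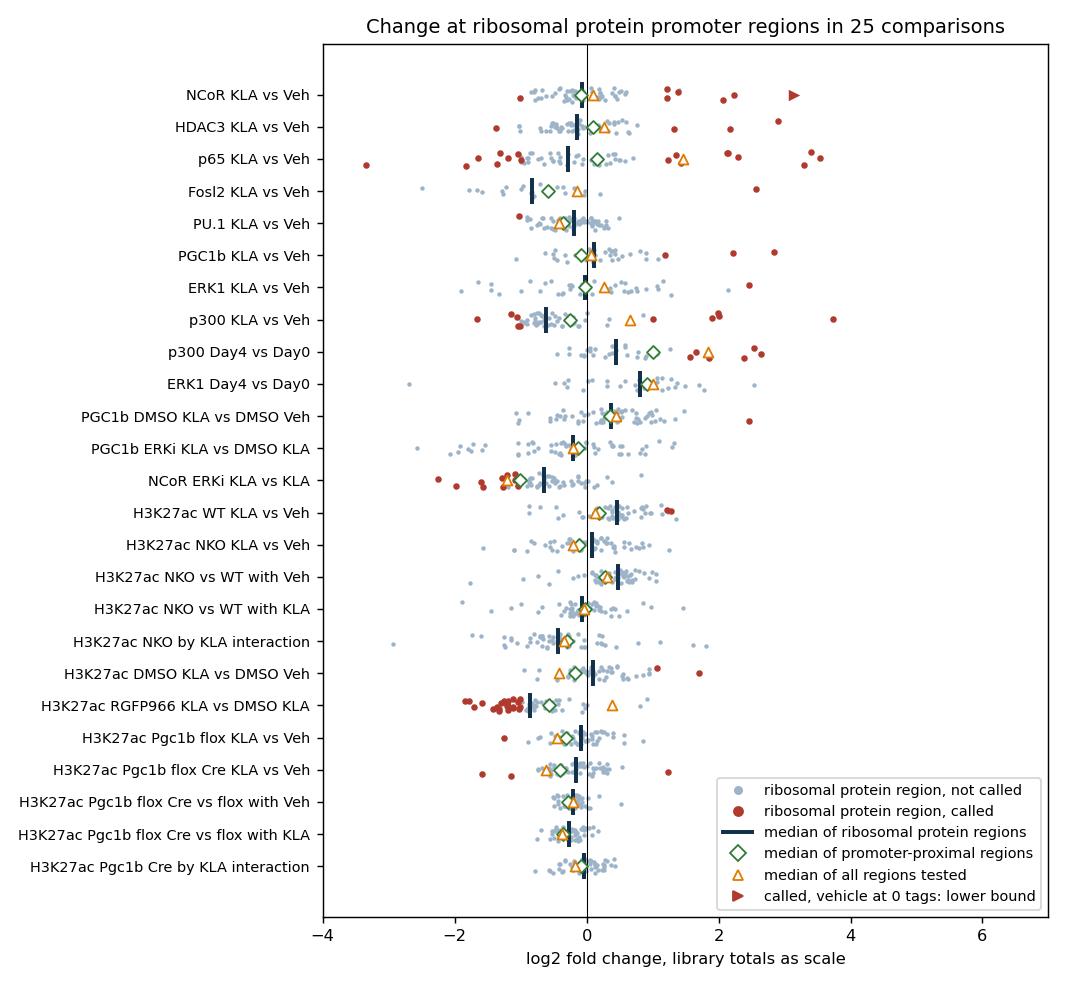
Log2 fold change (horizontal axis, library totals as scale) at the tested ribosomal protein regions in 25 comparisons; red points are called, the bar is their median, diamonds and triangles are the medians of promoter-proximal and of all regions, and the filled triangle is the lower bound at Rpl13, 8.81-fold. The ribosomal protein median is nearer to the promoter-proximal than to the all-region median for p65, p300 and RGFP966, where these differ most.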

How the data were processed

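ChIP-seq tags were counted in 70 libraries (35 groups of 2) over the regions of 15 tables. The authors deposited raw tag counts per region and library, with no normalization. Per the study's methods, reads were single-end, Bowtie2 placed them on mm10, and HOMER built the tag directories. Factor peaks were called with HOMER, kept where IDR held between replicates, then joined across conditions. H3K27ac tags were taken over ATAC-seq regions, in windows of 1000 bp in the RGFP966 and Pgc1b tables. At most 3 tags were kept per position. Versions were not given in the sources used here, nor was the treatment of reads that map to several places, so exonic regions may share reads with processed pseudogenes. The tables' distances to the start matched RefSeq GRCm38.p6 within 10 bp at 736 of 761 member regions.

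Counts were scaled by the library totals in the column headers and are given as tags per 10 M. Regions with at least 4 tags (H3K27ac 16) in at least 1 library were fitted by the two-sided quasi-likelihood test of edgeR 4.0.16 (R 4.3.3), each table on its own, and p-values were adjusted by Benjamini-Hochberg over all tested regions. Calls needed an adjusted p under 0.05 and a change above 2-fold. The standard error was the log2 change divided by the square root of F. An exact permutation of 2 against 2 libraries cannot give a two-sided p below 0.333 and was not used. Totals of 4.30 to 21.5 M tags limit the precision of low regions most.

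Alternatives were TMM scaling, DESeq2 1.42.0, no filter, a replicate block, a distance of 500 bp and each library left out in turn. The members and lists were chosen with earlier results of these data known. Named regions were, by rule, the called region with the lowest p in each direction of each comparison, a panel (Rplp0, Rpl3, Rpl5, Rpl11, Rpl13a, Rps3, Rps6, Rps19, Rps27a, Rpsa) at its strongest region, the region with most tags per kb in each table, and paralogs or look-alikes. Other regions were named after their values were seen (the Rps15a and Rpl13 sites over several factors, Rpl19, Rpsa in HDAC3, the p65 region of Rps27a that fell, and the Rps15a window with RGFP966). Rps19bp1 matches the name rule and is not a ribosomal protein. Sites joined over tables and motif counts were also added after seeing the data. RefSeq promoters were at hand for 61 of 81 member genes (75.3%), under the minimum of 80%, so the planned share over promoters is void and motifs were counted in the central 200 bp of the deposited regions. Panel regions and paralogs that were not called are given by counts in most comparisons, and 1 gene that the rule names is not reported here.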

Additional observations from a re-analysis of the deposited data

Results flagged for a closer look

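In the Pgc1b experiment the H3K27ac response to KLA differed between flox Cre and flox cells at 6 ribosomal protein windows, by an interaction term with an adjusted p under 0.05 and without a 2-fold difference (edgeR, 2 libraries per group). This is 6 of 56 windows, against 18.5% of all windows past the same threshold. The flox Cre KLA libraries stood apart (22.38 and 21.97% of tags in regions), and their part in this was not tested. The difference, flox Cre minus flox, was −0.55 and −0.57 on the log2 scale at both windows of Rpl14, which overlap, −0.40 at Rpl7, −0.51 at Rps19 and −0.79 at the window at −1575 bp from Rps15a. It was 0.42 at Rps27l, the paralog of Rps27 whose KLA change was −0.73 in flox and −0.32 in flox Cre cells by library totals and −0.30 and 0.30 with TMM. With TMM scaling 6 windows were under the threshold, all with a positive difference. Of the 6 named here Rps27l alone was among them (0.60, adjusted p = 0.00022), and the others had adjusted p-values of 0.072 to 0.23.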

How the results depend on the processing

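With TMM the counts of called ribosomal protein regions were 7 for HDAC3, 40 for p65, 0 for PU.1, 37 for p300, 6 (all lower) for p300 on Day4, 0 for PGC1β with DMSO, 2 (both higher) for NCoR with ERKi, 9 for H3K27ac with DMSO, 37 with RGFP966, and 2 (both higher) in each Pgc1b genotype. DESeq2 gave 7 for HDAC3 (3 higher, 4 lower), 38 for p65 (2 and 36), 3 for Fosl2 (1 and 2), 0 for PU.1 and 34 for p300 (3 and 31). It gave 1 (lower) for p300 on Day4, 0 for PGC1β with DMSO and 6 (all higher) for NCoR with ERKi. For H3K27ac it gave 11 (all higher) with DMSO, 36 (all lower) with RGFP966 and 2 (both higher) in each Pgc1b genotype. The DESeq2 calls for NCoR with ERKi, p300 on Day4 and Pgc1b flox were thus opposite in direction to those with library totals. The region of Rps27a at −1594 bp had a p65 change of −0.0012 with TMM, and that at −1608 bp had an NCoR change with ERKi of 0.069 with TMM and 0.081 with DESeq2, the opposite direction to library totals. The cause was not tested. Within 500 bp of the start the counts were 4 for NCoR, 2 for HDAC3, 9 for p65, 1 for PGC1β and 6 for p300. They were 0 for Fosl2, PU.1, ERK1, PGC1β with DMSO and Pgc1b flox, where the only called region lies farther out. The replicate block gave 0 for Fosl2, 1 for p300 on Day4 and 0 for PGC1β with DMSO, and kept the count within 1.5 times in the other 22 comparisons. Same-numbered libraries did not deviate together (31 correlations from −0.026 to 0.021). Counting noise also enters these deviations, so this cannot exclude a pairing, which the labels leave unknown. No filter kept all 25 counts within 1.5 times.
Leaving out each library in turn gave 0 to 9 calls for NCoR, 1 to 8 for HDAC3, 3 to 22 for p65, 0 to 9 for Fosl2, 0 to 2 for PU.1, 1 to 7 for PGC1β, 1 to 3 for ERK1, 4 to 11 for p300, 0 to 10 for p300 on Day4, 0 to 1 for ERK1 on Day4, 0 to 2 for PGC1β with DMSO, 0 for PGC1β with ERKi and 0 to 14 for NCoR with ERKi. For H3K27ac with KLA it gave 1 to 4 in WT, 0 to 1 in NKO, 2 to 5 with DMSO, 1 in flox and 3 to 4 in flox Cre cells, and 15 to 30 for RGFP966. The other H3K27ac comparisons between genotypes had 0 to 1. In such fits the lone library of a group is assumed to vary like the other groups. The difference between the ribosomal protein and promoter-proximal medians, which a change of scale moves little by construction, was −0.44 and −0.44 for p65 with library totals and TMM, −0.35 and −0.35 for p300, −0.23 and −0.20 for HDAC3, and −0.29 and −0.29 for RGFP966. Within 500 bp of the start it was −0.21 and −0.22, −0.17 and −0.18, −0.15 and −0.18, and −0.21 and −0.21. For the H3K27ac response to KLA the difference was above 0. It was 0.27 and 0.26 in WT, 0.20 and 0.19 in NKO, and 0.27 and 0.27 with DMSO. In flox cells it was 0.23 and 0.23, and in flox Cre cells 0.24 and 0.24.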
